A study of Homo sapiens with 3 samples.

Results

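The genes described here encode short noncoding RNAs that work inside the nucleus: the spliceosomal RNAs of RNU2-1, RNU4-1, RNU4-2, RNU5A-1, RNU5B-1 and RNU5D-1, and the RNAs of RN7SK, RMRP and RPPH1. They were chosen by position. Every region of 3 ChIP-seq lists whose centre fell in 1 of 7 windows around these 9 genes was taken, which gave 53 regions of 59983 in all. The CK2α list contributed 16 of its 13382 regions, the Pol II list with TBBz 19 of 24782, and the Pol II list with DMSO 18 of 21819. The windows were set with earlier results of these data known. The number of regions in them, their early places and their presence together in the lists therefore describe the choice and support nothing by themselves.

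The cells were LNCaP, an androgen-responsive human prostate carcinoma line at passages 40 to 45. ChIP-seq sequences the DNA recovered with an antibody, and each group was a single library. CK2α is 1 of the catalytic subunits of CK2, a protein kinase, and was recovered from cells given 100 nM dihydrotestosterone (DHT) and no inhibitor or vehicle that the labels name. RNA polymerase II (Pol II) was recovered with the N-20 antibody from cells given 25 μM TBBz, an inhibitor of CK2, for 2.5 hours, and from cells given DMSO, labelled with the same 25 μM, for 2.5 hours. Both of these cultures received 100 nM DHT for the last 1.5 hours, and all 3 cultures had spent 3 days in medium with 5% charcoal-treated serum. For CK2α, the treatment label gives 2.5 hours of DHT and the protocol 90 min. The treatment label was used to tell the Pol II libraries apart, since the source label of both mentions TBBz. There were no replicates, so the spread within a group is unknown and no difference below was tested. The lists hold positions without gene names, so the identity of the line was not checked against marker genes.

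Short nuclear RNAs are made by 2 polymerases. The genes of U1, U2, U4 and U5 are read by Pol II from compact promoters with a proximal sequence element (PSE) and, farther upstream, a distal element that often holds an octamer bound by OCT1. RN7SK, RMRP and RPPH1 are read by RNA polymerase III (Pol III) from promoters built from the same elements with a TATA box added, and an antibody against Pol II does not recover Pol III. The U2 RNA pairs with the branch site of introns, U4 holds U6 inactive until the spliceosome is assembled, and U5 aligns the exons. The RN7SK RNA keeps the elongation kinase P-TEFb in an inactive complex. RMRP is the RNA of RNase MRP, which takes part in ribosomal RNA processing, and RPPH1 is the RNA of RNase P, which takes part in the processing of precursor tRNAs.

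Promoter sequences of neighbouring genes are shown with the letters of these elements marked. They do not by themselves separate the 2 promoter types, which was not tested. None of the 9 genes is in the RefSeq promoter table used here (GRCh38.p14), which covers 250 bases before to 50 bases after a gene's start. RefSeq's gene order puts SIRT4 beside RNU4-2, GSTA4 beside RN7SK, CCDC107 beside RMRP and PARP2 beside RPPH1. The promoter windows of these protein-coding genes therefore stand in the DNA next to a short RNA gene, and RPPH1 and PARP2 are known to share a bidirectional promoter. That table held 2 entries for SIRT4, of which the first was used. The 3 windows below are from RefSeq, 5′ to 3′ on the strand of the protein-coding gene, with matches to the searched letters in capitals.
SIRT4 (chr12:120291939-120292238, GRCh38.p14, + strand): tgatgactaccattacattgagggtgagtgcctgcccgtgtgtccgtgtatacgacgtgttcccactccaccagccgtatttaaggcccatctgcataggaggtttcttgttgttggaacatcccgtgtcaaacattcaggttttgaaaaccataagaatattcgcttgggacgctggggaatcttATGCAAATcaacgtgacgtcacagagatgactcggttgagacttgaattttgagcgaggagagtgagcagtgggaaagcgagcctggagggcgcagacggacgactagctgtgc
CCDC107 (chr9:35658042-35658341, GRCh38.p14, + strand): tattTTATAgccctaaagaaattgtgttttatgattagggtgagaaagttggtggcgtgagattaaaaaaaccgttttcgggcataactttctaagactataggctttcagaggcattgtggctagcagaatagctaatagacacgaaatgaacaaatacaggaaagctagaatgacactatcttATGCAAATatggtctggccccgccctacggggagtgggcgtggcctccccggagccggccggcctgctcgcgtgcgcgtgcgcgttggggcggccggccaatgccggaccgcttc
PARP2 (chr14:20343385-20343684, GRCh38.p14, + strand): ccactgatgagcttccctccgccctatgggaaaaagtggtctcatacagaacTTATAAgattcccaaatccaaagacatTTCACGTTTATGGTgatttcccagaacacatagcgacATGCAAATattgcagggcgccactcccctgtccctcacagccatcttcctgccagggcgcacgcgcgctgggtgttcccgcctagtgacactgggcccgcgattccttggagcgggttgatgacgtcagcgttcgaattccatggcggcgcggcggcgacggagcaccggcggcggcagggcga

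The searched letters were TATAA or TATAT for a TATA-like stretch, ATGCAAAT for the octamer, and ACCNNNNNNTGAA, ACCNNNNNNNTGAA or ACCNNNNNNTAAA for a PSE-like stretch, each on both strands. A TATA-like match can overlap another, on either strand. The PARP2 window held all 3 kinds: TTATAA, which matches TATAA on both strands, a PSE-like match on the strand opposite to PARP2, where RPPH1 is read, and the octamer. The CCDC107 window, next to the Pol III gene RMRP, held TATAA on the opposite strand and the octamer, and no PSE-like match. The SIRT4 window, next to the Pol II gene RNU4-2, held the octamer alone. The GSTA4 window next to RN7SK held none of these letters and is not shown. Of the 35116 promoter windows in the table, 26.0% held a TATA-like stretch, 6.93% a PSE-like stretch, 1.77% the octamer, and 0.760% both a TATA-like stretch and the octamer. These matches describe the letters only, and a neighbour's window need not reach the whole promoter of the short RNA gene.

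The 53 regions formed 19 sites when centres of any list within 1 kb of the next were joined, and 16 of the 19 sites held a region of all 3 lists. The Pol II units (RNU5D-1, RNU5A-1 with RNU5B-1, RNU4-1 with RNU4-2, and the U2 array, 4 windows of 158 kb in all) had 16 sites, of which 13 held all 3 lists. The Pol III units (RN7SK, RMRP and RPPH1, 3 windows of 20 kb in all) had 1 site each, and all 3 held every list. Of the 18 DMSO regions, 16 had both a CK2α and a TBBz centre within 1 kb, which is 88.9%, where 44.6% of the whole DMSO list did. This share was not counted for the early part of the list alone. Nothing is read from the difference, because the windows were set with earlier results known. Places in a list are given below as the percent of the list that a region and all before it make up, so that a low percent is early; that an early place means a strong peak is an assumption, because the deposited score is 1 for every region. Places in lists of different lengths cannot be read as a change between libraries. All positions of regions are in hg19.

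The places of the 2 kinds of unit are given list by list. In the CK2α list the places ranged from 0.404% to 46.5% at the Pol II units (median 6.85%, 13 regions) and from 38.2% to 90.7% at the Pol III units (median 58.9%, 3 regions). In the TBBz list they ranged from 0.00807% to 99.9% at the Pol II units (median 18.0%, 16 regions) and from 37.1% to 43.8% at the Pol III units (median 38.4%, 3 regions). In the DMSO list they ranged from 0.00917% to 90.3% at the Pol II units (median 1.98%, 15 regions) and from 9.38% to 32.5% at the Pol III units (median 32.0%, 3 regions). The ranges overlapped in every list, and with TBBz and with DMSO that of the Pol III units lay within that of the Pol II units. For CK2α and with DMSO this overlap came from the U2 window alone, for CK2α from a single region at 46.5%. Without that window the Pol II units ranged from 3.21% to 19.0% for CK2α and from 0.105% to 4.01% with DMSO, apart from the Pol III units. With TBBz they ranged from 0.299% to 50.7%, and the Pol III units still lay within. Within the first 10% of their list stood 7 of 13 CK2α, 6 of 16 TBBz and 10 of 15 DMSO regions of the Pol II units. Of the 3 regions per list at the Pol III units, 0 of CK2α, 0 of TBBz and 1 of DMSO did so. By construction 10.0% of each whole list does. Since the places were known when the windows were set, nothing is read from these counts. The same holds for the ranges, with or without the U2 window, which set few regions against 3 per list.

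**Figure D1:**
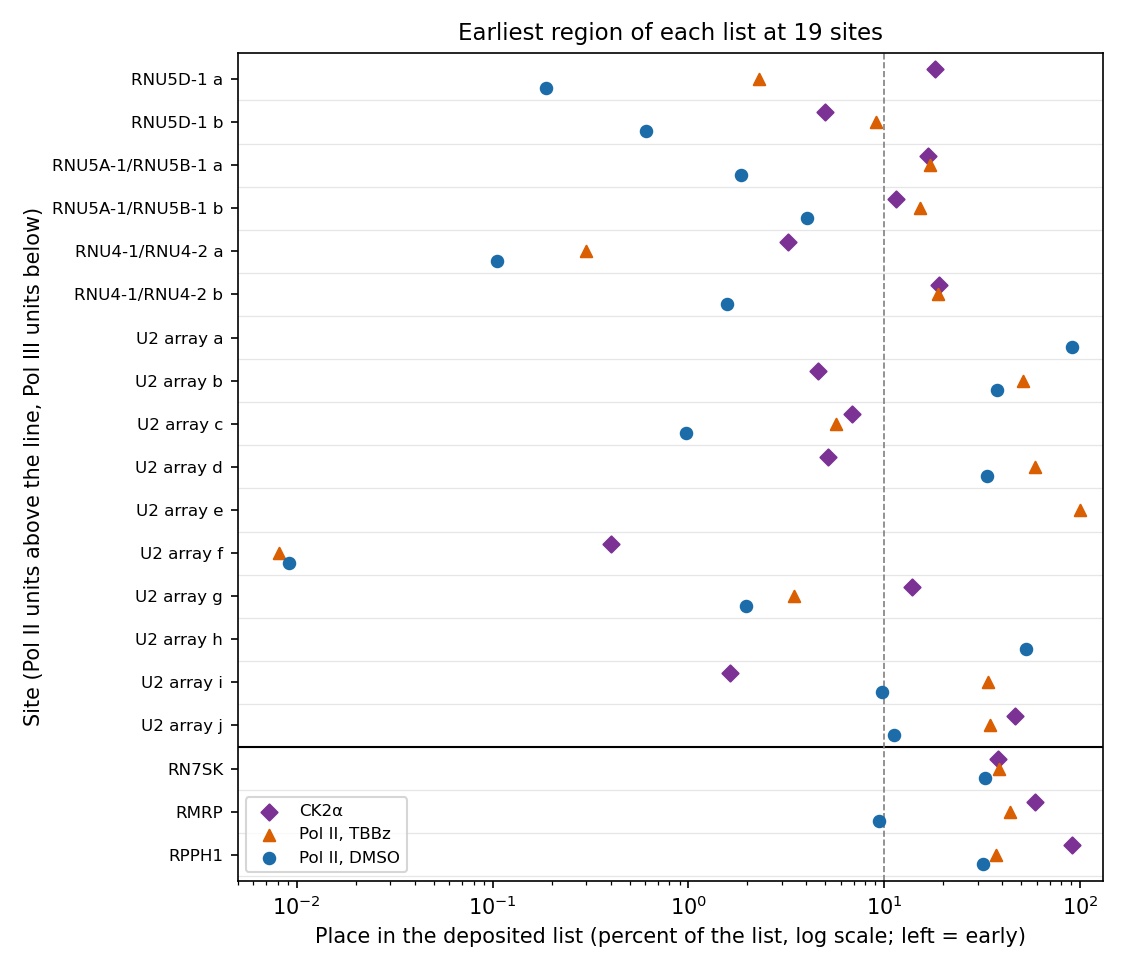
Place of the earliest region of CK2α (diamonds), Pol II with TBBz (triangles) and Pol II with DMSO (circles) at each of the 19 sites, in percent of the deposited list on a log axis; sites of a window are lettered along the chromosome, and the dashed line marks 10%. At the Pol III units, below the solid line, RMRP with DMSO at 9.38% is the only point left of the dashed line, while the Pol II units reach from 0.00807% with TBBz to 99.9% with TBBz.

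The U2 window (chr17:41360000-41480000) was the widest, at 120 kb, and held 25 of the 53 regions: 7 of CK2α, 9 with TBBz and 9 with DMSO. RefSeq lists 14 snRNA entries, RNU2-1 among them, between CCDC200 and LINC00910 in this neighbourhood. The U2 genes of the array are known as near-identical copies, but the sequences of these entries were not compared here. How the authors placed reads that fit several copies is not given in the sources used here, so a site cannot be tied to a single U2 gene. The window also takes in the neighbours of the array, and no gene annotation in hg19 was used to tell them apart. Lettered from a to j along the chromosome, 7 of the 10 sites held all 3 lists (b, c, d, f, g, i and j). Their DMSO centres were 11.4, 7.75, 37.6, 6.71, 20.9 and 10.2 kb apart, so the spacing was uneven.

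Site f was the leading one. Its CK2α region, chr17:41438393-41438593, was at place 54 of its list, its TBBz region, chr17:41438418-41438618, at place 2, and its DMSO region, chr17:41438528-41438728, also at place 2. It was the only site of the 7 windows with a region in the first 1% of all 3 lists. In the whole DMSO list, 26 regions of the first 1% had a CK2α and a TBBz region of the first 1% within 1 kb, and 25 of them were outside the windows. Site c was at 6.85% for CK2α, 5.69% with TBBz and 0.967% with DMSO, and site g at 13.9% for CK2α, 3.45% with TBBz and 1.98% with DMSO. Sites b, d and i were within the first 10% for CK2α, and of these only site i was so for Pol II, with DMSO. Site b was at 4.57% for CK2α, 50.9% with TBBz and 37.4% with DMSO. Site d was at 5.19% for CK2α, 59.1% with TBBz and 33.5% with DMSO. Site i was at 1.63% for CK2α, 33.9% with TBBz and 9.76% with DMSO, and carried a further TBBz region, chr17:41466663-41466863, 575 bp from the nearest DMSO centre. Site j was at 46.5% for CK2α, 34.6% with TBBz and 11.2% with DMSO. The order of the sites in the CK2α list thus began with site f, as in both Pol II lists, and then differed from theirs.

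The remaining 3 sites of the U2 window had a region of a single list. Site e, chr17:41415192-41415392, was present with TBBz only, at 99.9% of the list and 14245 bp from the nearest DMSO centre. Sites a, chr17:41365028-41365228, and h, chr17:41463688-41463888, were present with DMSO only, at 90.3% and 53.0% of the list. The nearest TBBz centre was 16866 bp from site a and 2289 bp from site h. All of them stood in the later part of their list, none had CK2α within 1 kb, and a region missing from a list can also be a candidate that the authors' filter on the surrounding 10 kb removed.

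**Figure D2:**
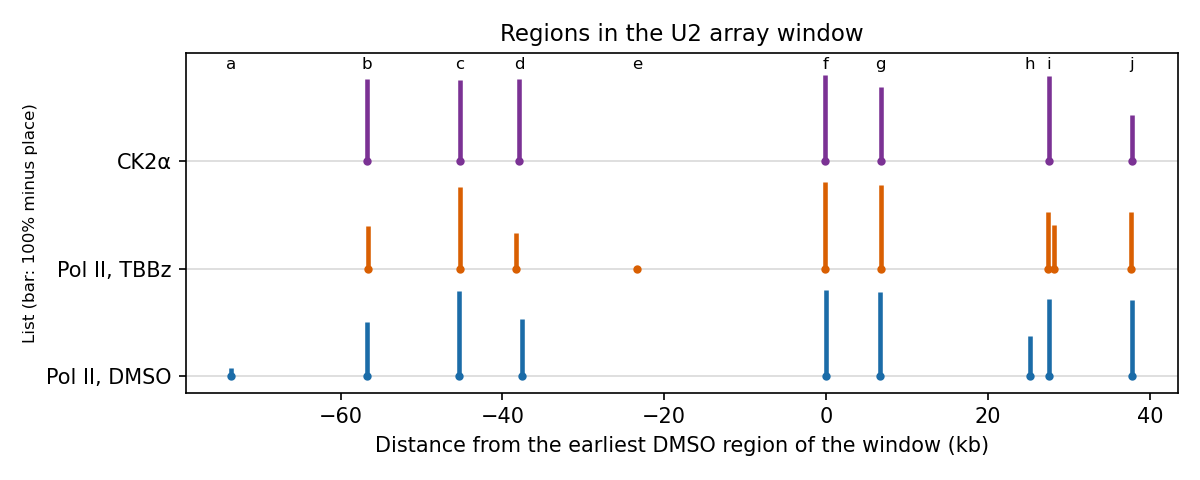
Regions of CK2α, Pol II with TBBz and Pol II with DMSO in the U2 window, by distance in kb from the earliest DMSO region (site f); dots mark the centres and the bar rises by 100% minus the place in percent, so that the tallest bars are earliest. Sites f, c and g are tall in the TBBz and DMSO rows, sites b, d and i are taller for CK2α than for Pol II, and sites a, e and h appear in 1 row each.

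The RNU4 window (chr12:120726000-120734000) had 2 sites within 10 kb, in the order in which RefSeq lists RNU4-2 and then RNU4-1 along the chromosome. At the first site CK2α was at chr12:120729408-120729608 (place 429), TBBz at chr12:120729519-120729719 (place 74) and DMSO at chr12:120729569-120729769 (place 23). These correspond to 3.21%, 0.299% and 0.105% of the CK2α, TBBz and DMSO lists, early in all of them. The second site was later in all of them, at 19.0% for CK2α (chr12:120730718-120730918), 18.9% with TBBz (chr12:120730849-120731049) and 1.58% with DMSO (chr12:120730844-120731044). The 2 genes encode near-identical U4 RNAs, and the split of shared reads between them is unknown. RefSeq's order puts the protein-coding gene SIRT4 beside RNU4-2, so Pol II of SIRT4 cannot be told apart here from Pol II at the RNU4 genes. Each of these regions also lies in the 10 kb that its neighbour was measured against.

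U5 came from 2 windows. In the RNU5D-1 window (chr1:45185000-45200000), the first site was at 18.2% for CK2α (chr1:45187322-45187522), 2.30% with TBBz (chr1:45187266-45187466) and 0.188% with DMSO (chr1:45187260-45187460). The second was at 4.98% for CK2α (chr1:45196521-45196721), 9.06% with TBBz (chr1:45196450-45196650) and 0.610% with DMSO (chr1:45196656-45196856). RNU5F-1, another U5 gene, lies next to RNU5D-1 in the RefSeq order, and which site belongs to which gene was not determined. CK2α was thus ordered oppositely to Pol II with TBBz and with DMSO over these sites, and DMSO was early at both.

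In the window of RNU5A-1 and RNU5B-1 (chr15:65585000-65600000), the first site was at 16.6% for CK2α (chr15:65588720-65588920), 17.2% with TBBz (chr15:65588368-65588568) and 1.86% with DMSO (chr15:65588384-65588584). The second was at 11.5% for CK2α (chr15:65597136-65597336), 15.2% with TBBz (chr15:65597108-65597308) and 4.01% with DMSO (chr15:65596994-65597194). Both sites thus stood between 11.5% and 16.6% for CK2α, between 15.2% and 17.2% with TBBz and between 1.86% and 4.01% with DMSO. A further TBBz region, chr15:65596137-65596337, stood at 50.7% of its list and 857 bp from the nearest DMSO centre.

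Among the Pol III units, RN7SK (window chr6:52857000-52864000) had its regions in the middle part of every list. CK2α was at 38.2% (chr6:52859589-52859789), Pol II with TBBz at 38.4% (chr6:52859941-52860141) and Pol II with DMSO at 32.5% (chr6:52859961-52860161). RMRP (window chr9:35655000-35661000) was at 58.9% for CK2α (chr9:35658563-35658763), 43.8% with TBBz (chr9:35658248-35658448) and 9.38% with DMSO (chr9:35658267-35658467), the earliest DMSO place among the 3 units. RPPH1 (window chr14:20808000-20815000) was at 90.7% for CK2α (chr14:20811377-20811577), 37.1% with TBBz (chr14:20811732-20811932) and 32.0% with DMSO (chr14:20811325-20811525). RefSeq's order puts GSTA4, CCDC107 and PARP2 next to these genes, as given with the promoter sequences. Pol II of these protein-coding neighbours cannot be told apart here from Pol II at the short RNA genes, a limit that SIRT4 also sets at the RNU4 sites.

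Overlap between Pol II with TBBz and with DMSO was then counted. Of the 19 TBBz regions 13 overlapped a DMSO region by at least 1 bp, which is 68.4% (exact Clopper-Pearson 95% interval 43.4 to 87.4%), against 65.0% of the whole TBBz list. In the other direction, 13 of the 18 DMSO regions had a TBBz region on them (72.2%, 46.5 to 90.3%), against 73.8% of the whole DMSO list. These shares were near those of the whole lists, although among the first 10% of each list the shares were higher, at 90.0% for TBBz and 92.4% for DMSO. The Pol II units had 11 of 16 TBBz regions and 11 of 15 DMSO regions with such a partner, and the Pol III units 2 of 3 in each direction. When 50% of the shorter region had to overlap, 9 of the 19 TBBz regions (47.4%) and 9 of the 18 DMSO regions (50%) had a partner, against 59.6% of the whole TBBz list and 67.7% of the whole DMSO list. At the Pol II units this left 43.8% of the TBBz and 46.7% of the DMSO regions, and at the Pol III units 66.7% of both. The intervals cover counting error only.

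Of the 19 TBBz regions, 18 had a DMSO centre within 1 kb, at a median distance of 77 bp. In the whole TBBz list, 18973 of 24782 regions had a DMSO centre that near, at a median distance of 25 bp (quartiles 10 and 82 bp). Taking the earliest region of each list at the 16 sites with all 3 lists, the TBBz and DMSO centres were between 5 and 718 bp apart. They were closest at the second RNU4 site (5 bp), the first RNU5D-1 site (6 bp) and the first site of RNU5A-1 and RNU5B-1 (16 bp). RMRP (19 bp) and RN7SK (20 bp) were close as well. At 3 sites the centres were more than 200 bp apart. These were the second RNU5D-1 site, where TBBz lay 206 bp toward the lower coordinate, site d of the U2 window, where it lay 718 bp toward the lower coordinate, and RPPH1, where it lay 407 bp toward the higher coordinate. The TBBz centre was on the lower side at 9 sites and on the higher side at 7, so no common direction along the chromosome was seen.

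Overlap of CK2α with Pol II was counted in the same way, over small numbers. Of the 16 CK2α regions 12 overlapped a DMSO Pol II region, which is 75.0% (47.6 to 92.7%), against 36.8% of the whole CK2α list and 57.4% of its first 10%. At the Pol II units it was 11 of 13, which is 84.6% (54.6 to 98.1%), and at the Pol III units 1 of 3, which is 33.3% (0.840 to 90.6%). These counts depended on the rule of 1 bp. When 50% of the shorter region had to overlap, it was 5 of 16 CK2α regions (31.2%), against 21.4% of the whole CK2α list, with 30.8% at the Pol II and 33.3% at the Pol III units. The single overlap at a Pol III unit was that of RPPH1, where the CK2α centre lay 52 bp from the DMSO centre. Of the 18 DMSO regions, 12 (66.7%, 41.0 to 86.7%) overlapped CK2α, against 22.6% of the whole DMSO list and 33.0% of its first 10%, and with the 50% rule 5 of 18 (27.8%), against 13.1% of the whole DMSO list. With TBBz, 11 of the 19 Pol II regions overlapped CK2α, which is 57.9% (33.5 to 79.7%), against 19.4% of the whole TBBz list and 29.1% of its first 10%. Seen from CK2α, 11 of its 16 regions overlapped Pol II with TBBz (68.8%, 41.3 to 89.0%), against 36.0% of the whole CK2α list and 52.4% of its first 10%. All 11 were at the Pol II units, with 0 of 3 at the Pol III units. The intervals of these shares were 54.6 to 98.1% at the Pol II units and 0 to 70.8% at the Pol III units. All these intervals treat regions of 1 library as independent, although 7 of the 13 CK2α regions at the Pol II units came from the U2 window. The intervals of the Pol II and Pol III units overlapped for DMSO and for TBBz, and no comparison of the units is drawn from them. Since the windows were set with earlier results known, shares above those of the whole lists are not read as a result. The CK2α library came from cells without TBBz.

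The CK2α centre lay between 12 and 372 bp from the DMSO centre at the 16 sites, with a median of 135 bp, against 219 bp (quartiles 91 and 390 bp) over the 10479 CK2α regions with a DMSO centre within 1 kb. The nearest pairs were site b of the U2 window (12 bp) and its site i (14 bp). The farthest were RN7SK (372 bp), site d of the U2 window (339 bp) and the first site of RNU5A-1 and RNU5B-1 (336 bp). CK2α was on the lower side of the DMSO centre at 7 sites and on the higher side at 9. It was nearer to the TBBz centre at 8 sites and nearer to the DMSO centre at 8. At the second RNU5D-1 site CK2α overlapped both Pol II regions, which did not overlap each other, and its centre lay 71 bp from the TBBz and 135 bp from the DMSO centre.

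**Figure D3:**
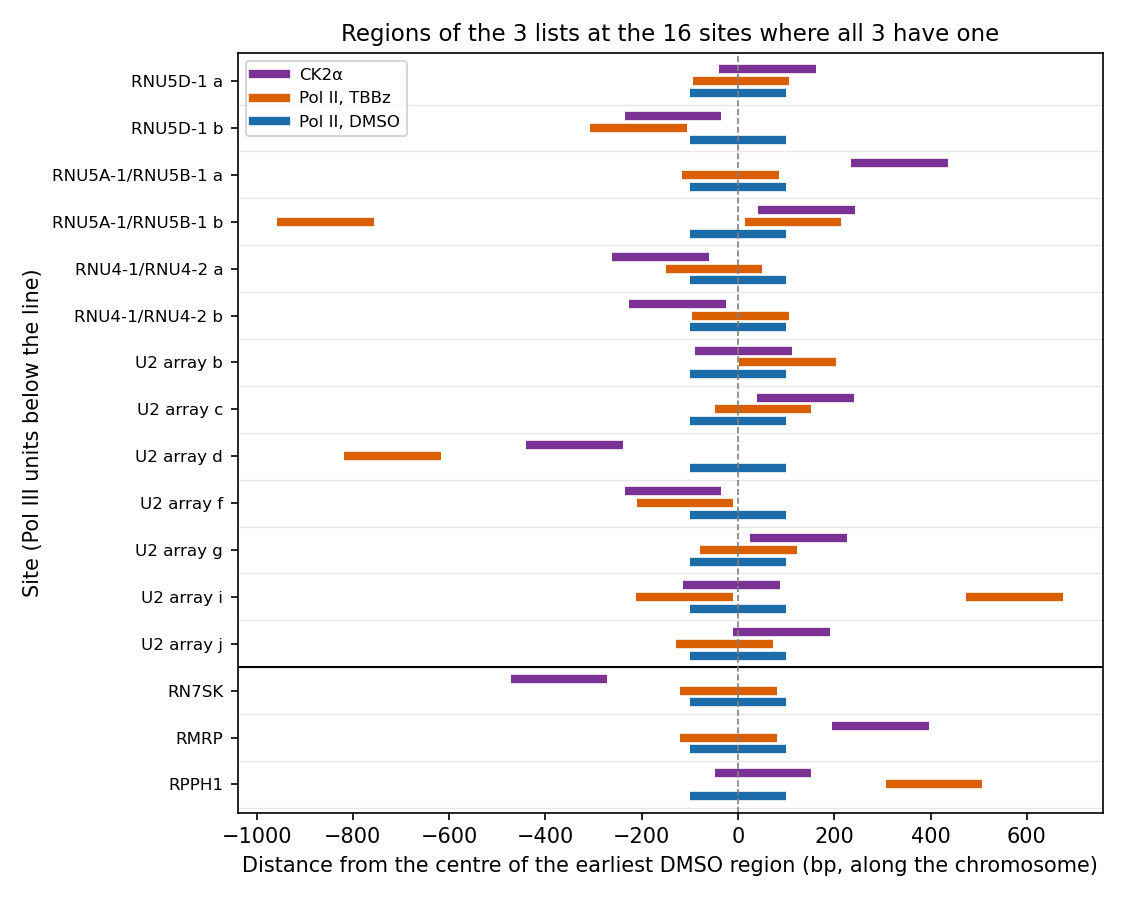
Regions of CK2α, Pol II with TBBz and Pol II with DMSO at the 16 sites with all 3 lists, drawn to scale by distance in bp from the centre of the earliest DMSO region (dashed line); the Pol III units are below the solid line. TBBz regions overlap the DMSO region at 13 of the 16 sites and stand apart at RPPH1, site d of the U2 window and the second RNU5D-1 site (b), while CK2α regions lie clear of the DMSO region at RN7SK, RMRP, site d of the U2 window and the first site of RNU5A-1 and RNU5B-1 (a).

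The places of the paired Pol II regions are set side by side without being read as a change. At 15 of the 16 sites the place in percent was later in the TBBz list than in the DMSO list, site f of the U2 window being the exception. Among the overlapping pairs alone it was later in 12 of 13. In the whole lists 40.3% of the 16112 overlapping pairs had a later place with TBBz, and 62.7% of the 2015 pairs whose DMSO region was in the first 10% did. In that early part the windows had 9 of 10 pairs later with TBBz. The windows were chosen with these places known, so the counts describe the choice. Of the 434 DMSO regions in the first 2% of their list that had a TBBz centre within 500 bp, the TBBz place had a median of 2.64% (quartiles 0.723 and 7.37%). The 8 of them in the windows had a median of 4.57%, and 3 of the 8 were beyond the upper quartile: the second RNU5D-1 site and the first site of RNU5A-1 and RNU5B-1, with 9.06% and 17.2%, and the second RNU4 site with 18.9%. Another 2 of the 8 were before the lower quartile: site f of the U2 window and the first RNU4 site. The libraries differed in depth, with 22345614 tags for TBBz and 15466579 for DMSO, and in the share of tags within regions, at 12.6% for TBBz and 6.79% for DMSO. What part these differences had in the places was not tested.

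**Figure D4:**
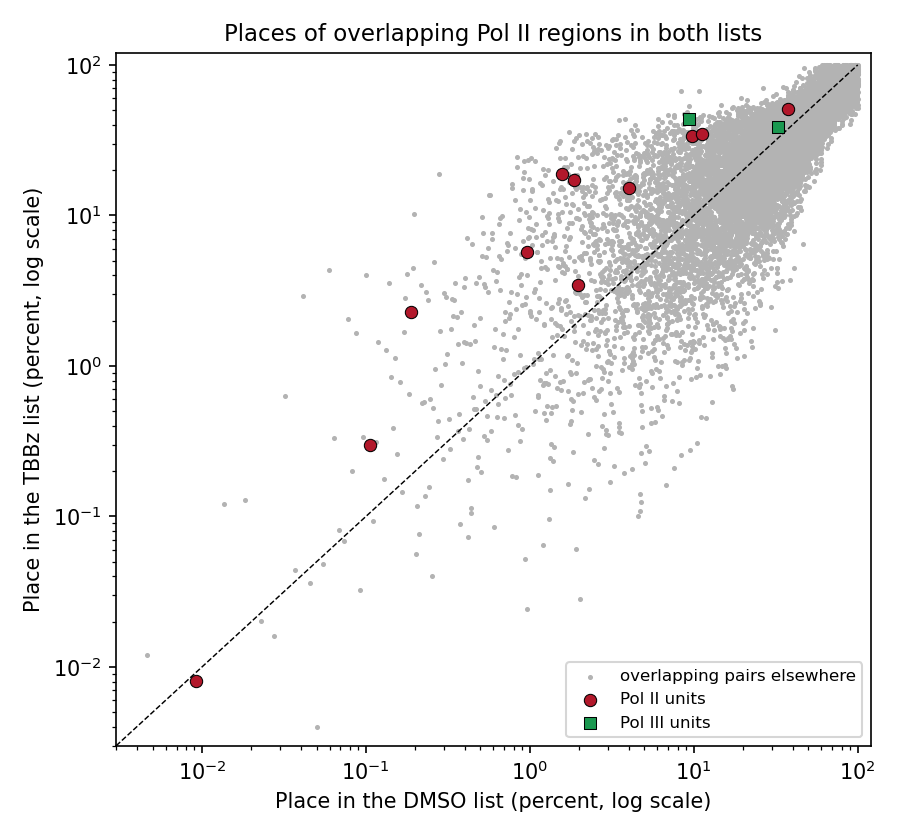
Place of each overlapping Pol II pair in the TBBz list (vertical, percent, log scale) against its place in the DMSO list (horizontal, percent, log scale), with the 16112 pairs of the whole lists in grey except the 13 pairs in the windows, which are circles for Pol II units and squares for Pol III units; the dashed line marks equal percents. Of the 13 pairs, 12 lie above the line and 1, site f of the U2 window, just below it.

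The sites were also close to others of the same list. Another region of the same list lay within 10 kb of all but 6 of the 16 CK2α, 4 of the 19 TBBz and 5 of the 18 DMSO regions, while 67.4% of all CK2α, 55.3% of all TBBz and 60.8% of all DMSO regions had none that near. The windows of RNU4, RNU5 and U2 were drawn around more than 1 gene, so this follows in part from their choice. The windows' edges did not cut through sites. The regions just inside an edge stood at least 2337 bp from it, and the nearest regions outside stood at least 4158 bp beyond it.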

How the data were processed

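Each of the 3 groups was a single ChIP-seq library, deposited as a list of regions. The submitters' processing notes name Bowtie, HOMER and the build hg19, whose versions the labels do not state. HOMER was run on each library alone, per the file headers, in factor style for peaks of 200 bp at least 500 bp apart. It used a false discovery rate of 0.001 and a 4-fold excess over the surrounding 10 kb, and no control library is in the command. That last filter removed 76.2% of CK2α, 35.3% of TBBz and 53.7% of DMSO candidates, and it can remove sites with much signal around them. The score column in the deposited lists is 1 for every region. The place in the list was used instead of the score. It followed the number in the region's name, taken as percent of the largest such number on the same chromosome (Spearman's rho from 0.984 to 0.993). Other deposited columns hold positions, whose starts were raised by 1. Library totals ranged from 15466579 to 22345614 tags (19021404 for CK2α), and the lists give no tags for single regions, so intervals of shares cover counting error only; tags that are PCR copies are not independent.

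The windows were those of the selection rule. The 9 members, the windows and the lists were chosen with earlier results of these data known. All members and every region in their windows were named. The list of other short RNA genes and the prostate markers were not counted, because no gene annotation in hg19 was used here. Names and neighbours came from RefSeq (GRCh38.p14), which held all 9 members, and no positions were converted between builds. Overlap and distance searches were tested on simulated lists. Shares have exact binomial intervals at 95%. The work was done in Python 3.11.15 with SciPy 1.17.1, NumPy 2.4.6, Matplotlib 3.10.9 and pandas 2.3.3.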

Additional observations from a re-analysis of the deposited data

How the results depend on the processing

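Of 60 alternative values, all planned, 48 stayed within the counting interval of the value reported, or within 1.5 times of it for counts and distances, and 12 moved. Requiring an overlap of 50% of the shorter region lowered the share of DMSO regions with CK2α to 27.8% (26.7% at the Pol II units) and that of CK2α regions with DMSO to 31.2% (30.8% at the Pol II units). The Pol III units stayed at 33.3% in both, so with this rule the Pol II units no longer had the higher share. The shares of TBBz and DMSO regions with each other were 47.4% and 50% (43.8% and 46.7% at the Pol II units), within their intervals. Counting centres within 500 bp instead raised the share of DMSO regions with CK2α to 88.9%. It raised that of CK2α regions with DMSO to 100%, at the Pol II and at the Pol III units alike. The shares of TBBz and DMSO regions with each other were 78.9% and 83.3% under this setting. Shares of the whole lists were not counted with it, so these values have none to be set against. At the Pol III units the same setting gave 100% for DMSO regions with CK2α and for TBBz and DMSO regions with each other, so CK2α overlap was not higher at the Pol II units under it either. The overlap rule alone sets these changes. The median distance from the 19 TBBz centres to the nearest DMSO centre, 102 bp, was 0 as an edge-to-edge gap, by construction, because overlapping regions have none. Widening the windows by 2 kb could add no region, because the nearest one outside stood 4158 bp beyond an edge. Its values, part of the 48, were therefore fixed in advance and show no stability. Shortening lists and using the number in the region's name moved no value beyond these bounds. Leaving out the U2 window was among these settings for the overlap shares only, and moved none of them beyond the bounds. The ranges of places did change without it, as given with the places above. No paired analysis was possible because there is a single library in each group. Leaving out a library was not possible either. What depth limits was not tested, since tags could not be thinned.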
